A study of Mus musculus with 2 samples.

Results

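The Atoh1 cells were the 347 of 14688 kept cells that held at least 2 unique molecular identifiers (UMIs, each a counted RNA molecule) of Atoh1 in 2 single-cell libraries from mouse embryonic stem cell cultures. They comprised 267 of the 8650 kept cells of the RA+BMP4 library and 80 of the 6038 kept cells of the RA library. A barcode was kept if it held at least 1000 genes and at most 10% of UMIs from mitochondrial genes, which retained 8650 of 13121 barcodes from RA+BMP4 and 6038 of 9704 from RA. The members were chosen by their Atoh1 UMIs, so the Atoh1 level itself is a description, and all levels below are UMIs of a gene per 1000000 UMIs summed over a group of cells (CPM).

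Both libraries came from the MM13 mESC line, a line of pluripotent mouse cells, at day 9 of a differentiation towards spinal sensory interneurons. RA+BMP4 cells received retinoic acid, a caudalizing signal, together with bone morphogenetic protein 4, a dorsalizing signal, and RA cells received retinoic acid alone; the labels state neither doses nor times of addition. Cells were dissociated with cold trypsin, dead cells were removed, and each condition was sequenced as 1 library with 10x Genomics 3′ chemistry. There was thus no replicate of either condition: cells of a library are not replicates, no test between conditions or groups of cells was possible, and each interval below covers counting error only.

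Atoh1 encodes a basic helix-loop-helix (bHLH) transcription factor that is switched on next to the roof plate of the dorsal spinal cord, in the progenitors that give rise to dI1 interneurons. In the mouse it is expressed briefly, from the last progenitor divisions into the first steps of differentiation, and the neurons that follow express the homeobox genes Barhl1, Barhl2, Lhx2 and Lhx9 and send axons in commissural or ipsilateral tracts to relay proprioception. Like other proneural factors it drives expression of Notch ligands, which keep neighbouring cells in the progenitor state.

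Atoh1 UMIs per Atoh1 cell ran from 2 through a median of 4 to 19 in RA+BMP4, and from 2 through a median of 3.5 to 29 in RA. Exactly 2 UMIs were held by 87 Atoh1 cells of RA+BMP4 and 24 of RA, and 5 or more by 111 (41.6%) and 27 (33.8%). Just outside the threshold, 208 kept cells of RA+BMP4 and 47 of RA held exactly 1 Atoh1 UMI. Cells on either side of the threshold differed by degree. Rassf4, a Ras-association domain gene that is described further below, was at 316 CPM in cells with 2 Atoh1 UMIs, 117 CPM in cells with 1 and 8.70 CPM in cells with 0 of RA+BMP4, and at 271, 103 and 8.20 CPM in those of RA.

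**Figure D1:**
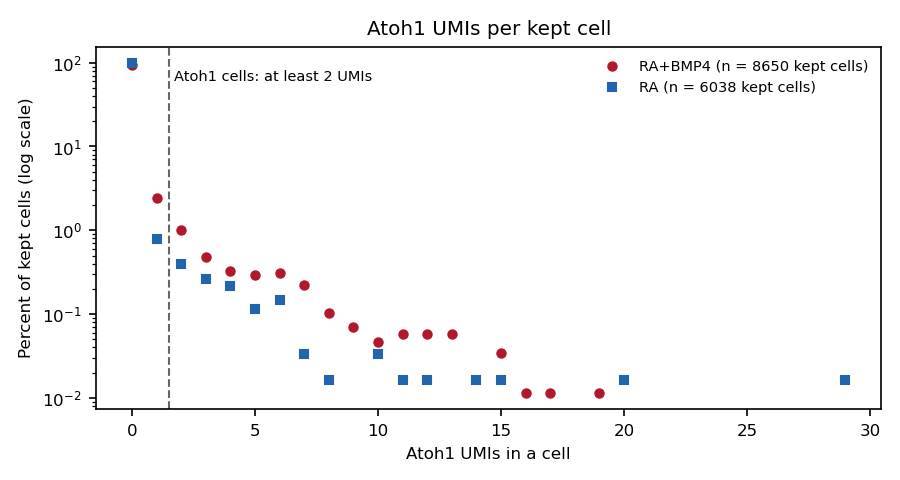
Percent of kept cells (y axis, log scale) by the number of Atoh1 UMIs per cell (x axis) in the RA+BMP4 and RA libraries, with a dashed line at the threshold of 2 UMIs. At most counts of Atoh1 UMIs from 1 upwards the RA+BMP4 share lay above the RA share, and 208 and 47 cells sat just below the threshold.

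Mesenchymal cells, which should lack Atoh1, serve as the background for its UMIs, and the source of those UMIs was not tested. Among mesenchymal cells, defined by at least 20 UMIs of the collagen genes Col1a1, Col1a2 and Col3a1, 8 of 767 in RA+BMP4 (1.04%) and 1 of 434 in RA (0.230%) held any Atoh1 UMI. None held 2 or more, although their median depths of 17130 and 26333 UMIs were above those of the Atoh1 cells. Finding none allows shares of up to 0.391% and 0.691%, by an approximate 1-sided limit and not a Clopper-Pearson interval. Median depth was 11034 UMIs in Atoh1 cells and 10587 in other kept cells of RA+BMP4, and 15882 and 14312 in those of RA. The median mitochondrial share was 4.17% and 4.22% in RA+BMP4 and 6.25% and 6.05% in RA. The libraries had 43 barcodes in common, 22 of them kept in both, and no barcode was an Atoh1 cell in both.

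Among the Atoh1 cells, 4 also held at least 5 UMIs of the pluripotency genes Dppa5a, Zfp42 and L1td1 and are called pluripotent-type here. The RA+BMP4 library held 1, with 120 such UMIs and a depth of 35131 UMIs, and it was called a doublet. The RA library held 3, with 172, 476 and 158 such UMIs and depths of 52580, 85055 and 80012 UMIs, none called a doublet, and these 3 cells contributed 14.1% of all UMIs of the RA Atoh1 cells. The other Atoh1 cells held at most 2 such UMIs in RA+BMP4 and 3 in RA. A rule to leave these 4 cells out was added after the values were seen, and results that rest on them are given with and without them. Doublets were called in 298 kept cells of RA+BMP4 (3.45%) and 138 of RA (2.29%), and 11 and 4 Atoh1 cells were among them.

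Atoh1 cells made up 3.09% of kept cells in RA+BMP4 (95% Clopper-Pearson interval 2.73 to 3.47%) and 1.32% in RA (1.05 to 1.65%). The share was 2.33 times as large in RA+BMP4 (1.82 to 2.98). With each cell thinned to 5000 UMIs, which sets the depth of both libraries equal, 139 of 8064 cells of RA+BMP4 (1.72%) and 21 of 5849 of RA (0.359%) still held at least 2 Atoh1 UMIs, a ratio of 4.80 (3.04 to 7.59). At 1 or more UMIs after thinning the shares were 3.75% and 1.23%, a ratio of 3.04 (2.36 to 3.93). The RA+BMP4 share was thus the higher under every threshold and filter tried, and the size of the ratio moved with them. With 1 library per condition, a difference between conditions and a difference between these cultures or preparations cannot be told apart.

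Of the 3 other genes given as markers of these cells, Olig3 and Barhl1 went with the label and Msx1 did not. Olig3, the bHLH factor of the most dorsal progenitors, was at 149 CPM in Atoh1 cells and 22.6 CPM in other kept cells of RA+BMP4 (log2 ratio 2.72, 95% interval 2.58 to 2.87), and at 93.1 and 7.43 CPM in those of RA (3.65, 3.38 to 3.90). Barhl1, a homeobox gene of dI1 neurons, was at 215 and 41.9 CPM in RA+BMP4 (2.36, 2.24 to 2.48) and at 198 and 2.39 CPM in RA (6.38, 6.13 to 6.62). Both genes were thus several times higher in Atoh1 cells of both libraries. Msx1, a homeobox gene of the roof plate and dorsal progenitors that responds to BMP, was at 84.1 CPM in Atoh1 cells and 209 CPM in other kept cells of RA+BMP4 (−1.31, −1.49 to −1.14), and at 54.3 and 101 CPM in those of RA (−0.90, −1.22 to −0.59). The cells are therefore called Atoh1 cells throughout. In GENCODE vM21 (GRCm38) Atoh1 lies at chr6:64729125-64731245 on the plus strand, Olig3 at chr10:19356533-19358604 on the plus strand and Barhl1 at chr2:28907679-28916668 on the minus strand, and all are protein-coding.

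Olig3 and Barhl1 were detected in a larger share of Atoh1 cells than of other kept or mesenchymal cells. At 5000 UMIs per cell, at least 1 UMI of Barhl1 was found in 61.2% of Atoh1 cells and 13.3% of other kept cells of RA+BMP4, and in 53.8% and 1.07% of those of RA. For Olig3 the thinned shares were 48.1% and 9.04% in RA+BMP4 and 31.3% and 2.48% in RA. Without thinning, Olig3 was found in 65.9% of Atoh1 cells and 3.39% of mesenchymal cells of RA+BMP4, and in 63.8% and 0.230% of those of RA. Also without thinning, 79.4% of Atoh1 cells, 18.98% of other kept cells and 7.95% of mesenchymal cells of RA+BMP4 held Barhl1, against 85.0%, 1.695% and 0.691% in RA. The Barhl1 share in other kept cells was thus much higher in RA+BMP4 than in RA, and so was that in mesenchymal cells.

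Progenitor and neuronal markers met in the same cells. UMIs of Olig3 together with Barhl1 or Barhl2 were found in 140 of 267 Atoh1 cells of RA+BMP4 (52.4%) and 41 of 80 of RA (51.3%). Barhl UMIs without Olig3 were found in 78 (29.2%) and 27 (33.8%), Olig3 without Barhl in 36 (13.5%) and 10 (12.5%), and neither in 13 (4.87%) and 2 (2.5%).

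**Figure D2:**
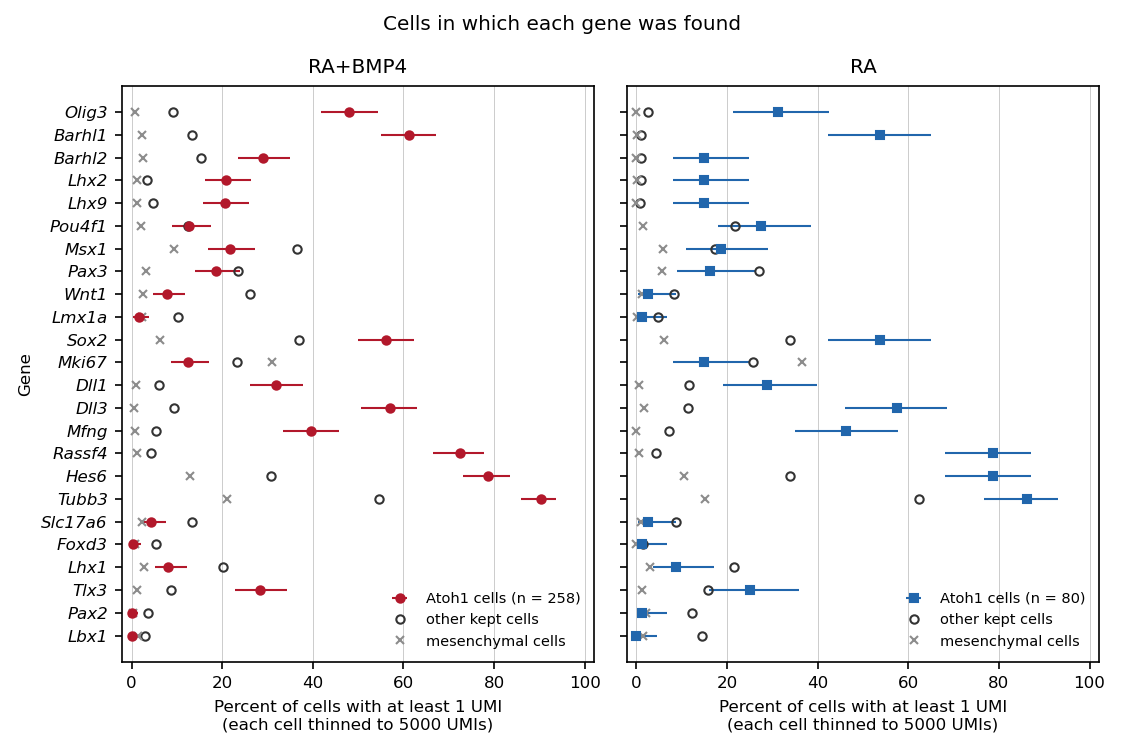
Percent of cells with at least 1 UMI (x axis) of each gene (y axis) after thinning to 5000 UMIs per cell, in RA+BMP4 (left panel) and RA (right panel), for Atoh1 cells with exact 95% intervals, other kept cells (circles) and mesenchymal cells (crosses). Rassf4 was found in 72.5% of Atoh1 cells and 4.32% of other kept cells of RA+BMP4, whereas Msx1 was found in 21.7% and 36.5%.

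The LIM homeobox genes of dI1 neurons, Lhx2 and Lhx9, were higher in Atoh1 cells of both libraries and were found in a minority of them. Lhx2 was at 59.6 CPM in Atoh1 cells and 10.3 CPM in other kept cells of RA+BMP4, and at 45.2 and 2.92 CPM in those of RA. Lhx9 was at 70.9 and 15.3 CPM in RA+BMP4 and at 47.2 and 1.17 CPM in RA. Without thinning, Lhx2 was detected in 26.6% of Atoh1 cells in RA+BMP4 and 26.3% in RA, and Lhx9 in 26.2% in RA+BMP4 and 26.3% in RA. These shares are not at equal depth, since the median was 11034 UMIs in Atoh1 cells of RA+BMP4 and 15882 in those of RA. Barhl2 was at 71.5 and 48.4 CPM in RA+BMP4 and short of 2-fold (0.56), and at 30.4 and 2.89 CPM in RA (3.39). Pou4f1, a POU-homeobox gene of dI1, dI2, dI3 and dI5 neurons, was at 33.1 and 38.0 CPM in RA+BMP4 and at 58.8 and 63.1 CPM in RA and did not separate the cells from the rest.

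A gene was called by size where it reached 20 CPM in either group and the groups differed at least 2-fold. Against other kept cells of the same library, 254 of 7339 genes (3.46%) were called higher and 515 (7.02%) called lower in Atoh1 cells of RA+BMP4. The corresponding counts in RA were 244 of 7137 (3.42%) higher and 529 (7.41%) lower. In both libraries alike, 171 of 6909 genes (2.48%) were higher and 297 (4.3%) lower. Without pluripotent-type cells in either group the counts were 245 (3.34%) higher and 518 (7.05%) lower in RA+BMP4, and 243 (3.4%) higher and 669 (9.36%) lower in RA. Other kept cells hold several cell types, among them mesenchymal and pluripotent-type cells. Lists of genes are read against these shares and against the median log2 ratio over all genes, which was −0.03 in RA+BMP4 and −0.07 in RA. Scaling by the median of gene ratios would subtract −0.08 in RA+BMP4 and −0.11 in RA from all log2 ratios, which raises them.

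The genes with the largest ratios in both libraries were led by Fmo2, a flavin-containing monooxygenase, and Rassf4. Fmo2 was at 28.7 CPM in Atoh1 cells and 0.447 CPM in other kept cells of RA+BMP4, and at 39.4 and 0.366 CPM in those of RA, but its UMIs came from 16 and 5 Atoh1 cells and 1 cell held 39.6% and 72.1% of them. Rassf4 was broad by comparison, with UMIs in 216 of 267 Atoh1 cells of RA+BMP4 and 76 of 80 of RA. It was at 410 CPM in Atoh1 cells and 11.7 CPM in other kept cells of RA+BMP4 (log2 ratio 5.13, 5.02 to 5.24), and at 370 and 8.89 CPM in those of RA (5.38, 5.23 to 5.53).

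The 20 highest genes include several that encode receptors, described here as members of that ranking and not as a group tested for it. Chrna3 and Chrnb4, adjacent genes on chromosome 9 encode nicotinic acetylcholine receptor subunits. Chrna3 was at 70.0 CPM in Atoh1 cells and 8.71 CPM in other kept cells of RA+BMP4, and at 59.5 and 7.78 CPM in those of RA. Chrnb4 was at 38.4 and 4.49 CPM in RA+BMP4 and at 38.1 and 2.75 CPM in RA. Epha5, an ephrin receptor of axon guidance, was at 490 and 60.8 CPM in RA+BMP4 and at 514 and 51.2 CPM in RA. Gsg1l, an auxiliary subunit of AMPA-type glutamate receptors, was at 91.7 and 6.98 CPM in RA+BMP4 and at 85.3 and 7.03 CPM in RA. Cd44, a hyaluronan receptor, was at 62.7 and 5.92 CPM in RA+BMP4 and at 55.6 and 5.17 CPM in RA. Sstr2, a somatostatin receptor, was at 64.0 and 6.95 CPM in RA+BMP4 and at 56.2 and 6.13 CPM in RA.

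The remaining leading genes encode enzymes, regulators and secreted proteins. Rab15, an endosomal GTPase, was at 55.5 CPM in Atoh1 cells and 5.58 CPM in other kept cells of RA+BMP4, and at 51.1 and 5.02 CPM in those of RA. Hsd11b2, which inactivates glucocorticoids, was at 138 and 12.6 CPM in RA+BMP4 and at 122 and 18.0 CPM in RA. Cbfa2t2, a transcriptional corepressor, was at 183 and 30.7 CPM in RA+BMP4 and at 202 and 33.4 CPM in RA. Bmper, a secreted BMP-binding protein, was at 55.8 and 9.47 CPM in RA+BMP4 and at 22.6 and 3.59 CPM in RA. Tchh, Fam174b, Adamts5, Rasgef1b, Gmpr and the Notch genes Mfng and Dll3 completed the 20 with Olig3. Between the Atoh1 cells of the 2 libraries, Bmper, Olig3 and Fmo2 were the furthest apart of these 20.

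Atoh1 binds E-box motifs, so the start-site windows of leading genes are shown with their E-boxes. RefSeq windows (GRCm38.p6, 250 bases before to 50 after the start, written in the direction of transcription) were available for 16 of the 20 leading genes. They were searched on both strands for CAGCTG, for CAGATG with its reverse complement CATCTG, and for CATATG, which do not overlap each other. At least 1 E-box was present in any window of 5 of the 16 genes (31.2%). By single windows it was 6 of 20 (30%), against 10962 of 32851 windows of all genes (33.4%), so the letters were no more frequent there than elsewhere. The windows below, all on the minus strand, belong to the leading genes Rassf4 (chr6:116673787-116674086), Dll3 (chr7:28301736-28302035), Chrnb4 (chr9:55048495-55048794) and Rab15 (chr12:76822475-76822774), and capitals mark the E-box; a match describes the sequence and is not a site of binding.
Rassf4: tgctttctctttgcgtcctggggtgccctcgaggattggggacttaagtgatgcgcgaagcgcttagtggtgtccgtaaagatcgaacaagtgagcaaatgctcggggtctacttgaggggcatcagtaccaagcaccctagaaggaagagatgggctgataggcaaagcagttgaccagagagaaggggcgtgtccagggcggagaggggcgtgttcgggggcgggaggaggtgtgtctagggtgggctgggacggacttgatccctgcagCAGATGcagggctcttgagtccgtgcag
Dll3: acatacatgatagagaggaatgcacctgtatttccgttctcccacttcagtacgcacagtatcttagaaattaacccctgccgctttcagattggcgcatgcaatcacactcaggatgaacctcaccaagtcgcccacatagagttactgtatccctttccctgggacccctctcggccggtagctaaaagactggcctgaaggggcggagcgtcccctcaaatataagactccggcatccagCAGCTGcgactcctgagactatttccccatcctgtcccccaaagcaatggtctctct
Chrnb4: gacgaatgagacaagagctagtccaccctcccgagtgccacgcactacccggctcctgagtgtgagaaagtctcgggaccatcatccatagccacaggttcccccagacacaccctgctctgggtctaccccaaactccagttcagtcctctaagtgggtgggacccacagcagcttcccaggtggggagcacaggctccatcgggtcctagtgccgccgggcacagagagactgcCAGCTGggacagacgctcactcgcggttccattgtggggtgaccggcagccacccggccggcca
Rab15: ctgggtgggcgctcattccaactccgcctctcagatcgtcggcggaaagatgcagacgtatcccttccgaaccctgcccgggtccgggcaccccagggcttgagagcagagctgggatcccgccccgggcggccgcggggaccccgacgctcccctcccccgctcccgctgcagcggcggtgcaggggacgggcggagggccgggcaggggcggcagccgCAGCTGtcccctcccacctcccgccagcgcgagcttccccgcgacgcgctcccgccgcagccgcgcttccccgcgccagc

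**Figure D3:**
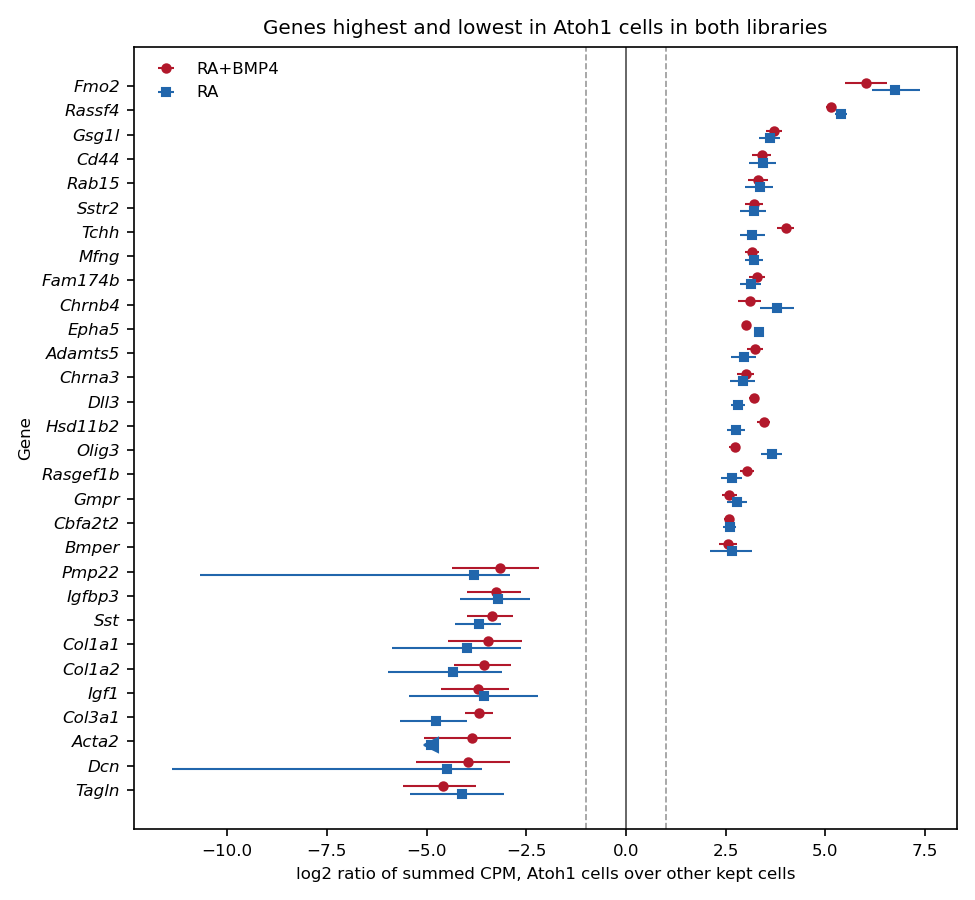
Log2 ratio of CPM in Atoh1 cells over other kept cells (x axis) for the 20 highest and 10 lowest genes by the smaller fold of the 2 libraries (y axis), with 95% counting intervals and dashed lines at 2-fold, for RA+BMP4 and RA. Rassf4 stood at 5.13 and 5.38, and a left-pointing triangle marks a bound for a gene with fewer than 3 UMIs in Atoh1 cells.

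Genes of mesenchyme and smooth muscle were among the lowest in Atoh1 cells. Tagln, a smooth-muscle actin-binding protein, was at 3.47 CPM in Atoh1 cells and 83.9 CPM in other kept cells of RA+BMP4, and at 4.52 and 77.9 CPM in those of RA. Col3a1 was at 21.7 and 279 CPM in RA+BMP4 and at 8.40 and 228 CPM in RA. Acta2 was at 2.52 and 36.4 CPM in RA+BMP4 and had no UMI in RA Atoh1 cells against 57.4 CPM in other kept cells, which makes it at least 29.6-fold lower with the Atoh1 cells set to 3 UMIs. Of the mesenchyme list, 7 of the 7 tested of 8 genes in RA+BMP4 and 6 of 6 in RA were at least 2-fold lower, with medians of −3.55 and −4.16. Its summed level was 69.3 CPM in Atoh1 cells and 609 CPM in other kept cells of RA+BMP4, and 40.1 and 514 CPM in those of RA. The neuropeptide gene Sst was also among the lowest, at 8.51 and 88.1 CPM in RA+BMP4 and 17.5 and 223 CPM in RA.

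Genes named as Atoh1 targets or partners in mouse neural tissue were mostly high. Of 23 such genes, 20 were tested in RA+BMP4 and 19 in RA, and 15 were at least 2-fold higher and 1 lower in each, with medians of 2.11 and 2.15. The list was drawn up with earlier results of these data known and holds genes already named, among them Rassf4, Rab15, Barhl1 and Dll3. Cntn2, a cell adhesion molecule of commissural axons, was at 251 CPM in Atoh1 cells and 79.2 CPM in other kept cells of RA+BMP4, and at 297 and 62.7 CPM in those of RA. Srrm4, a neuronal splicing regulator, was at 515 and 88.0 CPM in RA+BMP4 and at 394 and 89.0 CPM in RA. Selenom, a selenoprotein, was at 319 and 110 CPM in RA+BMP4 and at 200 and 75.4 CPM in RA. Robo3, the receptor that delays the response of commissural axons to Slit, was the gene that was lower, at 36.2 and 87.3 CPM in RA+BMP4 and at 16.2 and 74.7 CPM in RA.

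Most of the Notch ligands and modulators tested were higher in Atoh1 cells. Of 12 ligands and modulators, 8 were tested in RA+BMP4 and 6 in RA, and 5 were at least 2-fold higher in each, with medians of 1.21 and 1.29 and none lower. Dll1, the ligand that activates Notch in neighbouring cells, was at 149 CPM in Atoh1 cells and 19.04 CPM in other kept cells of RA+BMP4 (log2 ratio 2.97, 2.82 to 3.11), and at 86.0 and 34.9 CPM in those of RA (1.30, 1.04 to 1.55). Dll3, a ligand that acts mainly within its own cell, was at 208 and 22.6 CPM in RA+BMP4 (3.203, 3.08 to 3.33) and at 176 and 25.0 CPM in RA (2.81, 2.63 to 2.995). Mfng, a glycosyltransferase that modifies Notch, was at 101 and 11.3 CPM in RA+BMP4 (3.16, 2.98 to 3.34) and at 112 and 12.0 CPM in RA (3.22, 2.98 to 3.45). Mib1, the ubiquitin ligase that ligands need for signalling, was at 277 and 107 CPM in RA+BMP4 and at 248 and 103 CPM in RA.

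Among 10 receptors and targets, 1 of 6 tested was at least 2-fold higher and 2 lower in RA+BMP4, and 2 of 4 tested were lower in RA. Hes1, a target that represses proneural genes, was at 16.1 CPM in Atoh1 cells and 62.4 CPM in other kept cells of RA+BMP4, and at 11.0 and 37.3 CPM in those of RA. Hes5 differed in sign between the libraries, at 31.8 and 16.2 CPM in RA+BMP4 (0.97) and at 18.1 and 41.4 CPM in RA (−1.19). Rbpj, the DNA-binding effector of the pathway, was at 256 and 118 CPM in RA+BMP4 (1.12) and at 217 and 126 CPM in RA (0.78).

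Among 21 bHLH and Id genes, 3 of 12 tested were at least 2-fold higher in each library, and 3 were lower in RA+BMP4 and 4 in RA. The higher genes were Hes6, Neurod4 and Nhlh1, factors of early neuronal differentiation. This holds against other kept cells as a whole, and a comparison with more similar cells is given further below. Hes6, which counteracts Hes1, was at 689 CPM in Atoh1 cells and 104 CPM in other kept cells of RA+BMP4 (2.73, 2.67 to 2.80), and at 525 and 123 CPM in those of RA (2.09, 1.99 to 2.20). Neurod4 was at 47.3 and 21.6 CPM in RA+BMP4 and at 66.6 and 17.5 CPM in RA, and Nhlh1 was at 73.1 and 28.9 CPM in RA+BMP4 and at 60.1 and 24.9 CPM in RA. Neurog2, the proneural factor of more ventral domains, was at 1.58 and 20.1 CPM in RA+BMP4 and at 5.17 and 10.1 CPM in RA.

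Genes of cell cycle exit and the switch to differentiation were higher in part. Of 21, 19 were tested in each library, and 9 in RA+BMP4 and 8 in RA were at least 2-fold higher with none lower (medians 0.96 and 0.76). Gadd45g, a stress-responsive inhibitor of growth expressed as neural cells leave the cycle, was at 787 CPM in Atoh1 cells and 93.2 CPM in other kept cells of RA+BMP4, and at 440 and 110 CPM in those of RA. Insm1, a zinc-finger factor of late progenitors, was at 148 and 23.3 CPM in RA+BMP4 and at 138 and 28.7 CPM in RA. Btg2, an antiproliferative gene, was at 334 and 107 CPM in RA+BMP4 and at 251 and 108 CPM in RA. Ebf2, a factor of postmitotic neurons, was at 256 and 28.3 CPM in RA+BMP4 and at 278 and 50.7 CPM in RA. Cdkn1c, a cyclin-dependent kinase inhibitor on the list, was level, at 1053 and 1056 CPM in RA+BMP4 and at 1271 and 1261 CPM in RA.

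Many genes of the dividing cell were lower. Of 42 S phase genes, 23 of 33 tested in RA+BMP4 and 18 of 34 in RA were at least 2-fold lower and none higher (medians −1.33 and −1.04). Of 52 G2 and M phase genes, 22 of 47 tested in RA+BMP4 and 16 of 48 in RA were lower and none higher (medians −0.98 and −0.87). The RA counts differed without the pluripotent-type cells in either group, where 23 of 32 S phase genes and 38 of 47 G2 and M phase genes tested were lower in RA (medians −1.40 and −1.54). Mki67, a marker of cycling cells, was at 68.4 CPM in Atoh1 cells and 185 CPM in other kept cells of RA+BMP4 (−1.44, −1.64 to −1.24), and at 82.7 and 211 CPM in those of RA (−1.35, −1.62 to −1.10).

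Markers of mature neurons were divided. Of 18 pan-neuronal genes, all tested, 3 were at least 2-fold higher and 5 lower in RA+BMP4, and 6 were lower in RA (medians −0.58 and −0.77). Tubb3, an early neuronal tubulin, was at 1733 CPM in Atoh1 cells and 771 CPM in other kept cells of RA+BMP4, and at 1286 and 713 CPM in those of RA. Stmn2, a tubulin-binding protein of growing axons, was at 279 and 548 CPM in RA+BMP4 and at 237 and 707 CPM in RA. Mapt, an axonal microtubule protein, was at 54.5 and 166 CPM in RA+BMP4 and at 26.5 and 140 CPM in RA. Slc17a6, the vesicular glutamate transporter of dI1 neurons, was at 16.7 and 39.8 CPM in RA+BMP4 and at 11.0 and 19.8 CPM in RA. Sox2, a factor that maintains progenitors, was at 341 and 146 CPM in RA+BMP4 (1.23, 1.14 to 1.32) and at 249 and 148 CPM in RA (0.76, 0.61 to 0.90).

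Most roof plate genes tested were lower, whereas few markers of the neighbouring neuron classes reached the level to be tested. Of 11 roof plate genes, 6 of 7 tested in RA+BMP4 and 4 of 5 in RA were at least 2-fold lower. Of 7 dI2 genes, 1 of 2 tested was lower in each library. Of 4 dI3 genes, the 1 tested was higher in RA+BMP4 and not called in RA. Of 7 dI5 and dILB genes, 1 of 2 tested was higher in RA+BMP4 and 1 of 3 lower in RA. Of 11 dI4, dI6 and dILA genes, none was tested in RA+BMP4 and 3 of 3 were lower in RA. Wnt1, a mitogen of the roof plate, was at 28.0 CPM in Atoh1 cells and 88.2 CPM in other kept cells of RA+BMP4, and at 12.3 and 28.9 CPM in those of RA. Rspo3, which amplifies Wnt signals, was at 35.0 and 128 CPM in RA+BMP4 and at 9.70 and 40.6 CPM in RA. Lhx1, a homeobox gene of dI2 and dI4 neurons, was at 21.4 and 89.4 CPM in RA+BMP4 and at 18.7 and 93.5 CPM in RA, and Foxd3, of dI2 neurons and neural crest, was at 3.15 and 16.8 CPM in RA+BMP4 and at 0.646 and 4.93 CPM in RA, under the 20 CPM needed for a call. Tlx3, of dI3 and dI5 neurons, was at 77.8 and 27.8 CPM in RA+BMP4 (1.49, 1.29 to 1.68) and at 51.7 and 51.3 CPM in RA (0.01, −0.33 to 0.33).

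Atoh1 also acts in inner ear hair cells, and their defining genes were near 0. Gfi1, Myo7a, Otof and Ocm had no UMI in the Atoh1 cells of either library, Pou4f3 was at 0.630 CPM in RA+BMP4 and had none in RA, and 5 of the 10 listed genes in RA+BMP4 and 6 in RA were at 0. Myo6, which many tissues express, was the listed gene above 20 CPM, at 103 CPM in Atoh1 cells and 38.0 CPM in other kept cells of RA+BMP4, and at 65.9 and 26.5 CPM in those of RA.

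Among signal-response genes tested, more were lower than higher. Of 14 BMP response genes, 4 of 8 tested in RA+BMP4 and 3 of 7 in RA were at least 2-fold lower and 1 was higher in each, Bmper (medians −0.91 and −0.91). Of 26 Wnt genes, 7 of 13 tested in RA+BMP4 and 8 of 13 in RA were lower and 1 was higher in each (medians −1.03 and −1.23). The higher gene was Nkd1, a feedback inhibitor of Wnt signalling, at 349 CPM in Atoh1 cells and 64.2 CPM in other kept cells of RA+BMP4, and at 211 and 43.2 CPM in those of RA. Sfrp1, a secreted Wnt inhibitor, was at 29.3 and 228 CPM in RA+BMP4 and at 21.3 and 138 CPM in RA.

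Axon guidance genes went in both directions. Of 27, 24 were tested in RA+BMP4 with 5 at least 2-fold higher and 10 lower, and 23 in RA with 5 higher and 7 lower (medians −0.34 and −0.63). Dcc, a netrin receptor, was at 188 CPM in Atoh1 cells and 58.0 CPM in other kept cells of RA+BMP4, and at 118 and 37.0 CPM in those of RA. Nrp2, a semaphorin receptor, was at 508 and 154 CPM in RA+BMP4 and at 203 and 88.7 CPM in RA. Most dissociation stress genes tested were not called. Fos, an immediate early gene, was at 14.8 and 89.2 CPM in RA+BMP4 and at 8.40 and 113 CPM in RA, and of 23 stress genes 1 of 16 tested was higher and 5 were lower in RA+BMP4, and 1 of 15 was higher and 6 were lower in RA (medians −0.37 and −0.52).

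Levels are given next by the number of Atoh1 UMIs per cell, as a description, since the threshold used the same UMIs. Rassf4 was at 8.70, 117, 316, 403, 492 and 421 CPM in RA+BMP4 cells with 0, 1, 2, 3 to 4, 5 to 9 and 10 or more Atoh1 UMIs, and at 8.20, 103, 271, 396, 457 and 378 CPM in RA cells. Hes6 was at 101, 185, 409, 634, 782 and 1254 CPM in RA+BMP4 and at 122, 282, 377, 454, 767 and 664 CPM in RA. Sox2, at 145, 175, 263, 273, 371 and 590 CPM in RA+BMP4 and at 147, 214, 226, 225, 274 and 352 CPM in RA, was highest in the cells with most Atoh1. Stmn2 ran the other way, at 547, 578, 421, 321, 195 and 73.8 CPM in RA+BMP4, and was at 709, 355, 281, 195, 285 and 137 CPM in RA. The highest bin held 25 cells in RA+BMP4 and 8 in RA, and median depth there was 13051 and 19232 UMIs, above the 10392 and 14772 UMIs of cells with 2. Pluripotent-type cells were kept in these values. Those among the Atoh1 cells held 4, 3 and 2 Atoh1 UMIs in RA and 9 in RA+BMP4, so they lie below the highest bin.

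The Atoh1 cells differed among themselves in their Barhl UMIs. They were divided by summed Barhl1 and Barhl2 UMIs into cells with 0 (49 in RA+BMP4, 12 in RA), 1 to 4 (140 and 35) and 5 or more (78 and 33). Median depths were 10740, 10705 and 11726 UMIs in RA+BMP4 and 16019, 15000 and 16772 in RA. A pair of outer groups was added for reference after the data were seen, both without Atoh1 UMIs and without pluripotent-type cells. Olig3 cells held at least 2 Olig3 UMIs and no Barhl UMI (372 in RA+BMP4, 110 in RA), and Barhl cells held at least 5 Barhl UMIs (786 and 39). The pluripotent-type cells were left out of the levels that follow, which leaves 49, 139 and 78 Atoh1 cells in RA+BMP4 and 11, 34 and 32 in RA. The Olig3 cells also held UMIs of other lineages. Their summed dI2 list was at 360 CPM in RA+BMP4 and 302 CPM in RA, against 55.8 and 66.2 CPM in Atoh1 cells. Their neural crest list was at 307 and 262 CPM, against 22.0 and 33.1 CPM. Their pan-neuronal list was at 4240 and 4842 CPM, against 4887 and 4718 CPM.

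Between Atoh1 cells with 5 or more Barhl UMIs and those with 0, 702 of 7272 genes (9.65%) were at least 2-fold higher and 553 (7.6%) lower in RA+BMP4, and 615 of 7250 (8.48%) higher and 895 (12.3%) lower in RA. In both libraries alike, 240 of 6633 (3.62%) were higher and 257 (3.87%) lower. With all Atoh1 cells, 903 (12.8%) were higher and 882 (12.5%) lower in RA, and 312 (4.8%) and 264 (4.06%) in both libraries alike. The RA values of the lower state rest on 11 cells. Neuronal genes were higher in the cells with 5 or more Barhl UMIs. Of 18 pan-neuronal genes, 16 were at least 2-fold higher in each library and none lower, with medians of 2.18 and 2.16 against 0.09 and 0.02 over all genes. Of 17 dorsal progenitor genes, 10 of 13 tested in RA+BMP4 and 12 of 14 in RA were lower (medians −1.61 and −1.83). Of 52 G2 and M phase genes, 40 of 48 tested in RA+BMP4 and 30 of 39 in RA were lower (medians −2.46 and −1.98), and of 14 BMP response genes, 7 of 9 and 6 of 8 were lower.

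Values are given across Olig3 cells, the Atoh1 cells with 0, 1 to 4 and 5 or more Barhl UMIs, and Barhl cells. All were sampled on the same day, so the order is one of Barhl and Olig3 UMIs and is not shown to be one of time. Sox2 was at 237, 581, 345, 190 and 21.1 CPM in RA+BMP4 and at 224, 491, 317, 128 and 53.6 CPM in RA. Id3, a BMP-responsive inhibitor of bHLH factors, was at 606, 1022, 291, 124 and 98.1 CPM in RA+BMP4 and at 453, 1078, 168, 113 and 111 CPM in RA. Both were thus highest in Atoh1 cells without Barhl UMIs, above the Olig3 cells. Mki67 was at 173, 190, 43.7, 25.9 and 37.0 CPM in RA+BMP4 and at 147, 146, 50.3, 31.0 and 26.0 CPM in RA. The drop in this proliferation marker lay between the Atoh1 cells with 0 and with 1 to 4 Barhl UMIs. Top2a, a G2 and M phase topoisomerase, was at 372, 504, 104, 90.0 and 66.6 CPM in RA+BMP4. In RA it did not keep this order and was at 286, 48.5, 178, 91.3 and 27.6 CPM, with 9 UMIs behind the value of the Atoh1 cells with 0 Barhl UMIs.

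Of the 21 genes of the differentiation switch, 20 were tested against Olig3 cells in each library: 2 were at least 2-fold higher and 3 lower in Atoh1 cells of RA+BMP4, and 2 higher and 1 lower in those of RA (medians 0.19 and 0.18). Against Barhl cells, 6 of 19 were higher and 2 lower in RA+BMP4, and 6 of 20 higher and 2 lower in RA. Of the 21 bHLH and Id genes, none of 16 tested was higher and 11 were lower than in Olig3 cells of RA+BMP4. In RA, 1 of 14 was higher and 8 were lower (medians −1.54 and −1.16). Against Barhl cells, 6 of 11 of these were higher and 1 lower in RA+BMP4, and 4 of 11 higher and 1 lower in RA. Hes6 was at 357, 689, 804, 514 and 77.3 CPM in Olig3 cells, the 3 Atoh1 states and Barhl cells of RA+BMP4 and at 261, 631, 721, 427 and 124 CPM in RA. Gadd45g was at 462, 850, 945, 511 and 33.6 CPM in RA+BMP4 and at 297, 437, 648, 327 and 26.0 CPM in RA. Both were highest in the Atoh1 cells with 1 to 4 Barhl UMIs and were several times lower in the Barhl cells.

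The Notch ligands differed in the Atoh1 state of their highest level. Dll1 was at 67.5, 247, 174, 50.7 and 9.10 CPM in RA+BMP4 and at 67.5, 162, 134, 29.2 and 1.63 CPM in RA, with its highest value in Atoh1 cells without Barhl UMIs. Dll3 was at 61.6, 56.8, 242, 255 and 38.3 CPM in RA+BMP4 and at 36.4, 64.7, 203, 239 and 63.4 CPM in RA, with its highest value in those with 5 or more. Rassf4, too, was high in both Atoh1 states with Barhl UMIs, at 13.7, 161, 489, 449 and 27.6 CPM in RA+BMP4 and at 10.9, 226, 424, 476 and 94.3 CPM in RA. Of the 20 leading genes, 19 had their highest level in 1 of the 3 Atoh1 states in each library. This is a description, since these genes were chosen for a high ratio over other kept cells, which include the Olig3 and Barhl cells. The exception was Olig3, whose UMIs defined the Olig3 cells.

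Neuronal genes were highest in Atoh1 cells with 5 or more Barhl UMIs or in Barhl cells. Ebf1, a factor of differentiating neurons, was at 246, 74.6, 541, 1190 and 742 CPM in RA+BMP4 and at 252, 21.6, 257, 1033 and 1056 CPM in RA. Lhx2 had no UMI in Atoh1 cells without Barhl UMIs, and was at 48.9 CPM in those with 1 to 4 and 117 CPM in those with 5 or more in RA+BMP4, against 18.5 and 108 CPM in RA. Tubb3 was at 1468, 414, 1762, 2573 and 1830 CPM in RA+BMP4 and at 1373, 501, 1065, 2260 and 1809 CPM in RA. Stmn2 was at 205, 79.5, 257, 450 and 1398 CPM in RA+BMP4 and at 329, 27.0, 146, 449 and 1393 CPM in RA. Slc17a6 was at 3.16, 1.62, 14.1, 31.1 and 222 CPM in RA+BMP4 and at 8.03, 0, 13.4, 16.4 and 252 CPM in RA. Stmn2 and Slc17a6 were thus highest in the Barhl cells, outside the Atoh1 cells.

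**Figure D4:**
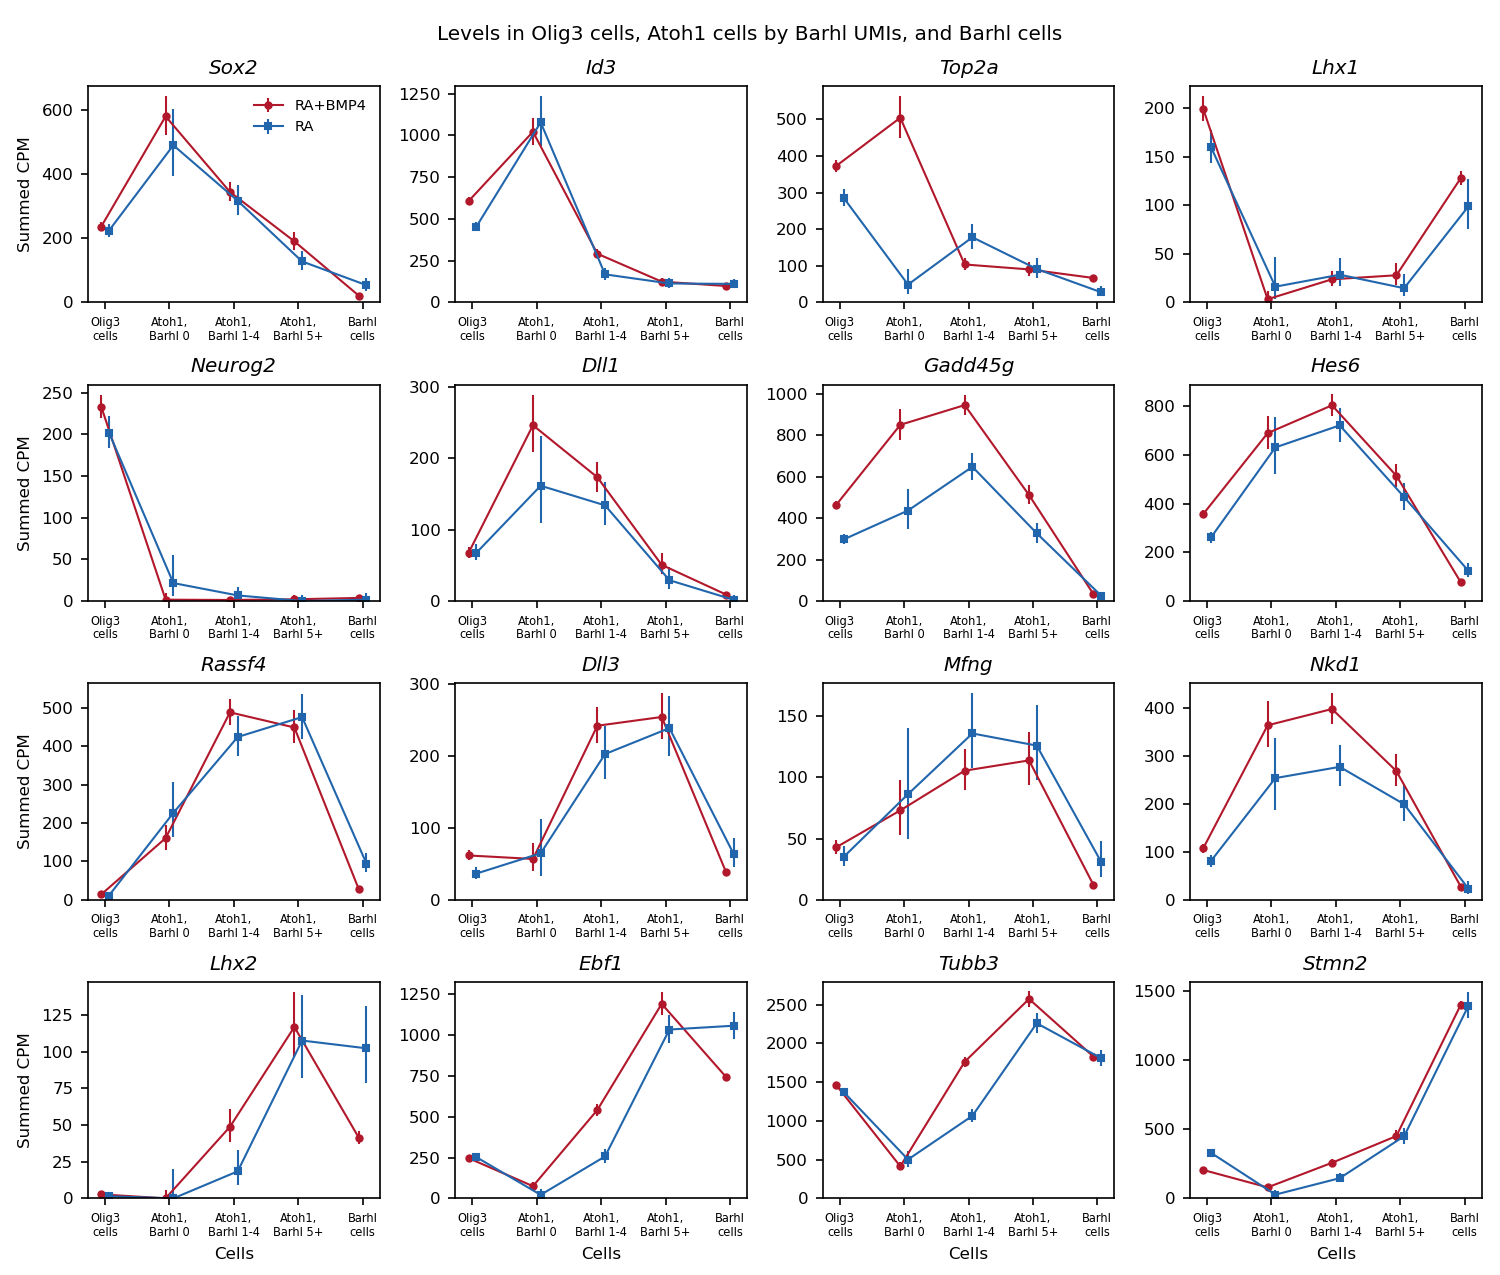
CPM (y axes) of 16 genes in Olig3 cells, Atoh1 cells with 0, 1 to 4 and 5 or more Barhl UMIs and Barhl cells (x axes), without pluripotent-type cells, for RA+BMP4 and RA with 95% counting intervals. Sox2 and Id3 were highest in Atoh1 cells without Barhl UMIs, Hes6 and Gadd45g in those with 1 to 4, and Stmn2 in Barhl cells, in both libraries.

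The genes named for the largest difference between the states, by the smaller fold of both libraries, included Ebf1, the POU factors Pou3f1 and Pou2f2 and the cannabinoid receptor Cnr1. Pou3f1 was at 337 CPM in Atoh1 cells with 5 or more Barhl UMIs and 40.6 CPM in those with 0 of RA+BMP4, and at 288 and 21.6 CPM in those of RA. Cnr1 was at 104.5 and 4.87 CPM in RA+BMP4 and at 157 and 10.8 CPM in RA, but its log2 ratio in RA+BMP4 turned to −0.23 when cells were thinned to 5000 UMIs before the states were made. The upper state then held 14 cells of RA+BMP4, against 78 as reported. The lowest included Slc1a3, a glial and progenitor glutamate transporter, at 5.18 and 60.02 CPM in RA+BMP4 and 1.83 and 64.7 CPM in RA. Rest, a repressor of neuronal genes, was at 14.5 and 125 CPM in RA+BMP4 and at 12.8 and 119 CPM in RA. The mitotic gene Tpx2 was at 7.25 and 161 CPM in RA+BMP4 and at 18.3 and 183 CPM in RA.

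Against both outer groups in both libraries, 59 of 6257 genes (0.943%) were at least 2-fold higher in Atoh1 cells and 18 (0.288%) lower. Against Olig3 cells alone, 163 (2.31%) were higher and 223 (3.16%) lower in RA+BMP4, and 177 (2.55%) and 404 (5.82%) in RA. Against Barhl cells alone, 481 (6.48%) were higher and 792 (10.7%) lower in RA+BMP4, and 537 (7.52%) and 955 (13.4%) in RA. Of the 20 leading genes, 16 were among the higher ones, and Sstr2, Chrna3, Olig3 and Rasgef1b were not; their choice over cells that include both outer groups favours this, so the count is a description. Tchh, which encodes trichohyalin of the hair follicle, was at 80.6 CPM in Atoh1 cells, 1.89 in Olig3 cells and 4.61 in Barhl cells of RA+BMP4, and at 70.7, 0.472 and 9.75 CPM in those of RA. Cd44 was at 62.8, 6.31 and 3.71 CPM in RA+BMP4 and at 57.9, 8.03 and 1.63 CPM in RA. E2f1, a transcription factor of cell cycle entry, was at 89.6, 11.6 and 6.18 CPM in RA+BMP4 and at 97.8, 13.7 and 19.5 CPM in RA. S100a6, a calcium-binding protein, was at 79.4, 4.63 and 3.26 CPM in RA+BMP4 and at 34.6, 0.472 and 0 CPM in RA.

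The genes lower than in both outer groups were led by Pcdh9, a protocadherin, at 8.29 CPM in Atoh1 cells, 42.1 in Olig3 cells and 53.5 in Barhl cells of RA+BMP4, and at 8.27, 42.5 and 40.6 CPM in those of RA. Lhx1 came next, at 21.0 CPM in Atoh1 cells, 199 in Olig3 cells and 128 in Barhl cells of RA+BMP4, and at 21.1, 160 and 99.1 CPM in those of RA. Lhx1os, a neighbouring noncoding gene on the other strand, was also lower. Neurog2 and Tfap2b were higher in the Olig3 cells. Neurog2 was at 1.59 CPM in Atoh1 cells and 233 CPM in Olig3 cells of RA+BMP4, and at 6.02 and 202 CPM in those of RA. Tfap2b, an AP-2 factor, was at 181 CPM in the Olig3 cells of RA+BMP4 and 167 CPM in those of RA, and at most 37.7 CPM in any Atoh1 state.

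Within the Atoh1 cells, 170 of 6893 genes (2.47%) were at least 2-fold higher and 76 (1.1%) lower in RA+BMP4 than in RA. The lowest ratios rested on the 3 pluripotent-type cells of RA: they held 97.9% of the Tdgf1 UMIs and 98.6% of the Lefty1 UMIs of the RA Atoh1 cells. Lefty1, a Nodal inhibitor, was at 5.36 CPM in all Atoh1 cells of RA+BMP4 and 233 CPM in all those of RA, but at 4.14 and 3.76 CPM without pluripotent-type cells. Without these cells, 182 of 6812 genes (2.67%) were higher and 38 (0.558%) lower, with a median log2 ratio of 0.11. Other kept cells without pluripotent-type cells had 61 of 7173 genes (0.85%) higher and 28 (0.39%) lower, with a median of 0.05, and with them 62 (0.866%) higher and 45 (0.628%) lower. The Atoh1 groups are far smaller than the other kept cells, so counting error is wider in them. The CPM values and ratios that follow leave the pluripotent-type cells out, and counts of cells out of 267 and 80 are over all Atoh1 cells.

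Among the genes high in Atoh1 cells, Rassf4, Dll3 and Barhl1 had ratios between the conditions near 0 and Bmper was more than 2-fold apart. Rassf4 was at 412 CPM in RA+BMP4 and 418 CPM in RA (log2 ratio −0.02, −0.17 to 0.12), Dll3 at 210 and 199 CPM (0.08, −0.13 to 0.29), and Barhl1 at 217 and 223 CPM (−0.04, −0.24 to 0.16). Lhx2 was at 60.2 CPM in RA+BMP4 and 52.7 CPM in RA (0.19, −0.21 to 0.61) and Lhx9 at 71.7 and 54.9 CPM (0.39, 0.00 to 0.79). In other kept cells the same homeobox genes were apart, with Barhl1 at 45.0 CPM in RA+BMP4 and 2.87 CPM in RA and Lhx9 at 16.5 and 1.37 CPM. Of the 23 Atoh1 targets and partners, 20 were tested, 1 was at least 2-fold higher and 1 lower in RA+BMP4, and the median was 0.00. Barhl2 was the higher gene, at 72.3 and 35.4 CPM (1.03, 0.57 to 1.52), and Pou4f1 the lower, at 33.5 and 67.7 CPM (−1.02, −1.44 to −0.59). With all Atoh1 cells, 2 of 20 tested were higher and none lower (median 0.13), so Pou4f1 was then not called.

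The gene with the largest ratio was H19, an imprinted noncoding RNA of chr7:142575529-142578143 on the minus strand, at 71.4 CPM in Atoh1 cells of RA+BMP4 and 2.26 CPM in those of RA, where it rested on 3 UMIs (log2 ratio 4.98, 3.42 to 7.27). It was found in 94 of 267 Atoh1 cells of RA+BMP4 and 4 of 80 of RA. Mesenchymal cells expressed it in both libraries, at a detection of 52.7% in RA+BMP4 and 53.5% in RA, and in other kept cells it was at 173 and 75.0 CPM (1.20). Plagl1, an imprinted zinc-finger gene, was at 39.5 CPM in RA+BMP4 and 9.03 CPM in RA (2.13, 1.27 to 3.12), against 47.0 and 19.3 CPM in other kept cells (1.28). The part that free RNA plays in these ratios was not tested.

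Hoxa9 and Hoxc9, caudal Hox genes, were at least 2-fold higher in RA+BMP4, and Hoxb9 was not. Hoxa9 (chr6:52223100-52231089, minus strand) was at 170 CPM in Atoh1 cells of RA+BMP4 and 39.9 CPM in those of RA (2.09, 1.68 to 2.53), and at 66.9 and 27.4 CPM in other kept cells (1.29). Among all Atoh1 cells it was detected in 168 of 267 of RA+BMP4 and 24 of 80 of RA, or 49.2% and 11.3% after thinning. Hoxb9 was at 871 and 503 CPM in Atoh1 cells (0.79, 0.67 to 0.92) and at 508 and 522 CPM in other kept cells (−0.04), and Hoxc9 was at 163 and 76.7 CPM in Atoh1 cells (1.08) and at 237 and 72.9 CPM in other kept cells (1.698). Of the Hox genes of groups 9 to 13, 2 of the 3 tested of 16 were at least 2-fold higher. None of 10 tested in groups 1 to 5 or 7 tested in groups 6 to 8 was called, with medians of −0.36 and −0.03. Hoxa5 was at 138 CPM in RA+BMP4 and 244 CPM in RA (−0.82, −1.03 to −0.61), and Hoxa7 at 212 and 341 CPM (−0.69, −0.86 to −0.52).

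A larger share of hypoxia and glycolysis genes than of all genes was at least 2-fold higher in RA+BMP4. Over all genes, 2.67% were higher in Atoh1 cells (median 0.11) and 0.85% in other kept cells (median 0.05). Of 19 hypoxia and glycolysis genes, 3 of 15 tested in Atoh1 cells were at least 2-fold higher (median 0.71), and 2 of 16 in other kept cells (median 0.68). With all Atoh1 cells, 2 of 16 were higher and 1 was lower (median 0.46). Slc16a3, a lactate transporter, was at 100.1 CPM in Atoh1 cells of RA+BMP4 and 21.8 CPM in those of RA (2.20, 1.65 to 2.80), and at 73.9 and 17.5 CPM in other kept cells (2.08). With the pluripotent-type cells it was at 99.0 and 43.3 CPM in Atoh1 cells (1.19), and at a stricter cell filter that left 6 Atoh1 cells in RA its ratio was −0.43. Bnip3, a mitophagy receptor, was at 157 and 63.2 CPM in Atoh1 cells (1.32, 0.98 to 1.67), and at 106 and 50.4 CPM in other kept cells (1.08). Ldha, lactate dehydrogenase, was at 792 and 402 CPM in Atoh1 cells (0.98, 0.84 to 1.12), and at 629 and 334 CPM in other kept cells (0.91). The difference between the ratios in Atoh1 cells and in other kept cells was not tested.

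A minority of the BMP response and Wnt genes tested were higher, though in Atoh1 cells at larger shares than the 2.67% of all genes. Of 14 BMP response genes, 2 of 6 tested were at least 2-fold higher in Atoh1 cells of RA+BMP4 (median 0.46), against none of 7 in other kept cells (median 0.30). Id1, a direct BMP target, was at 99.4 CPM in Atoh1 cells of RA+BMP4 and 45.9 CPM in those of RA (1.12, 0.72 to 1.54), and at 188 and 142 CPM in other kept cells (0.41). Bmper was at 55.5 and 24.8 CPM in Atoh1 cells (1.16, 0.62 to 1.74), and at 10.1 and 4.13 CPM in other kept cells (1.29). Of 26 Wnt genes, 3 of 10 tested were higher (median 0.58), against 5 of 13 in other kept cells (median 0.64). Rspo3 was at 35.1 and 11.3 CPM in Atoh1 cells (1.64, 0.85 to 2.52), and at 137 and 47.8 CPM in other kept cells (1.52), but its ratio in Atoh1 cells was −0.16 at the stricter cell filter. Wnt3 was at 25.5 and 8.27 CPM in Atoh1 cells (1.62, 0.71 to 2.68), and at 28.8 and 12.8 CPM in other kept cells (1.17). Of 11 roof plate genes, a list that shares Wnt1 with the Wnt genes, 3 of 4 tested were higher in Atoh1 cells of RA+BMP4 (median 1.08) and 3 of 7 in other kept cells (median 0.91).

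Some G2 and M phase genes were higher in the Atoh1 cells of RA+BMP4 once pluripotent-type cells were left out. Of 52, 7 of 34 tested were at least 2-fold higher and none lower (median 0.48), against none of 47 in other kept cells (median −0.06). The direction of the median turned with the pluripotent-type cells kept: with all Atoh1 cells, none of 40 tested was higher and 2 were lower (median −0.28). Ckap2, a spindle protein, was at 39.2 CPM in Atoh1 cells of RA+BMP4 and 10.5 CPM in those of RA (1.90), and at 57.2 and 60.7 CPM in other kept cells (−0.09). Its UMIs lay in 41 of 267 Atoh1 cells of RA+BMP4 and 13 of 80 of RA. Of its 39 UMIs in RA, 25 were in the pluripotent-type cells left out here. The share of cells without Barhl UMIs among all Atoh1 cells was 18.4% in RA+BMP4 and 15% in RA, at unequal depth. After thinning to 5000 UMIs, 83 of 258 Atoh1 cells of RA+BMP4 and 29 of 80 of RA had no Barhl UMI, so the order of the shares turned. The part of these cells in the difference was not tested. Sct, the hormone secretin, was at 61.2 and 16.5 CPM in Atoh1 cells (1.89, 1.25 to 2.59), with UMIs in 36 of 267 Atoh1 cells of RA+BMP4 and 11 of 80 of RA, and at 2.28 and 1.30 CPM in other kept cells. Nrp2 was at 509 and 227 CPM in Atoh1 cells (1.16, 0.99 to 1.35), and at 165 and 106 CPM in other kept cells (0.64).

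Among genes lower in RA+BMP4, Crabp1 changed direction between the Atoh1 cells and the rest. This binding protein of retinoic acid was at 1650 CPM in Atoh1 cells of RA+BMP4 and 3368 CPM in those of RA (−1.03, −1.09 to −0.97), but at 1030 and 419 CPM in other kept cells (1.30, 1.28 to 1.32). It was the only gene called in opposite directions in these 2 comparisons. With the pluripotent-type cells kept, no gene was called in opposite directions. It was widest in the Atoh1 cells with 5 or more Barhl UMIs, at 2009 CPM in RA+BMP4 and 5455 CPM in RA, whereas those with 0 had 586 and 480 CPM and those with 1 to 4 had 1849 and 2349 CPM. Insl6, an insulin-like gene, was at 19.4 and 53.4 CPM in Atoh1 cells (−1.46, −1.98 to −0.94), with UMIs in 45 of 267 Atoh1 cells of RA+BMP4 and 36 of 80 of RA, and at 6.77 and 6.57 CPM in other kept cells. Hcn4, a pacemaker channel, was at 6.37 and 24.8 CPM (−1.961, −2.84 to −1.12), with UMIs in 19 Atoh1 cells of RA+BMP4 and 23 of RA.

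Several other genes low in RA+BMP4 rested on few cells. In RA, 1 Atoh1 cell held 61.4% of the UMIs of Defa24, a member of the near-identical alpha-defensin family whose reads may be shared among copies, 73.5% of those of the neuropeptide gene Cck and 86.7% of those of Thbs1. Defa24 was at 1.91 CPM in Atoh1 cells of RA+BMP4 and 42.9 CPM in those of RA, Cck at 7.01 and 36.9 CPM, and Thbs1 at 7.01 and 33.8 CPM. Neither library held these genes in more than 10 Atoh1 cells.

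**Figure D5:**
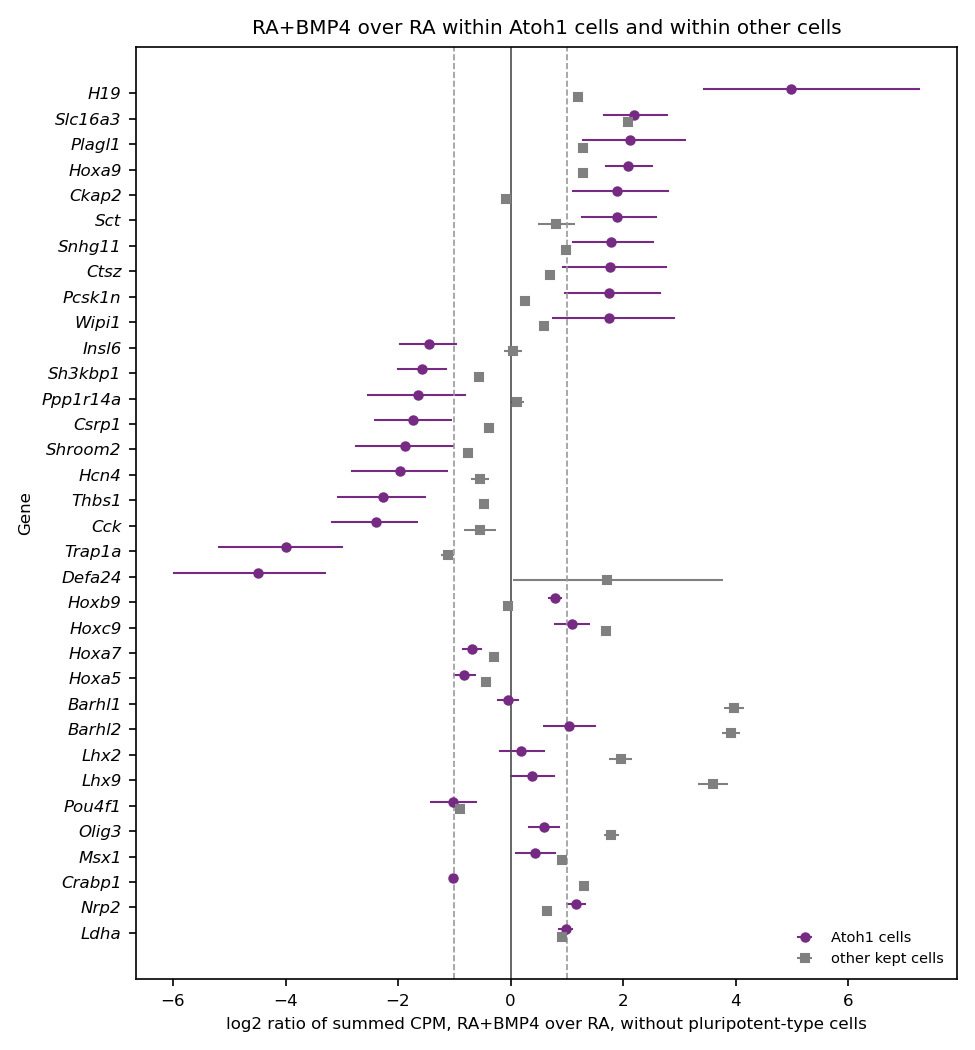
Log2 ratio of CPM in RA+BMP4 over RA (x axis) for 34 genes (y axis) in Atoh1 cells with 95% counting intervals and in other kept cells, without pluripotent-type cells. H19, Slc16a3 and Hoxa9 stood above 2-fold in both, Barhl1 at −0.04 in Atoh1 cells and 3.97 in other kept cells, and Crabp1 at −1.03 and 1.30.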

How the data were processed

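Filtered 10x matrices of whole-number counts (UMIs per gene and cell barcode, 31053 genes) were deposited for 2 libraries, 1 per condition; per the submitters' processing notes the tools named were CASAVA and Cell Ranger 3.0.2 and the build GRCm38. The deposited counts were used as they stand, with no normalization by the authors in the files. Here a barcode needed 1000 or more genes and no more than 10% mitochondrial UMIs to be kept. UMIs were summed over the cells of a group and scaled to 1000000. Ratios of levels carry exact conditional binomial intervals, the ratio of 2 shares a log-normal interval, and shares exact Clopper-Pearson intervals at 95%. These intervals cover counting error only, and treat UMIs and cells as independent. The limits for Atoh1 in mesenchymal cells are approximate and 1-sided. A gene was called by size at 20 CPM or more in either group and at least 2-fold, with fewer than 3 counts set to 3. No hypothesis test was made.

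Named genes were list members, the 20 highest and 10 lowest for Atoh1 cells over other kept cells, the 10 highest and lowest for RA+BMP4 over RA, and the 8 highest and lowest between Barhl states, leaving out Atoh1, predicted and mitochondrial genes. The members and gene lists were chosen with earlier results of these data known. E2f1, S100a6 and Tfap2b were chosen after their values were seen. Doublets were called with Scrublet in scanpy 1.11.5 at an expected 8% and kept in the main values. The scripts were run with python 3.11.15, numpy 2.4.6, scipy 1.17.1 and pandas 2.3.3 and tested on simulated data. Total UMIs of kept cells were 108405908 in RA+BMP4 and 113696617 in RA. Gene coordinates and sequence windows are of GRCm38.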

Additional observations from a re-analysis of the deposited data

Results flagged for a closer look

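Crabp1 had a log2 ratio of RA+BMP4 over RA of −1.03 in Atoh1 cells and 1.30 in other kept cells, both without pluripotent-type cells, and was called in opposite directions. With those cells kept, no gene was called in opposite directions. The difference between these 2 ratios was not tested, since each condition had 1 library.

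Lefty1 and Rhox5 were called in opposite directions in the 2 libraries. Lefty1 had a log2 ratio of Atoh1 cells over other kept cells of −2.36 in RA+BMP4 and 1.18 in RA, and Rhox5 of −3.32 and 1.06. Both are genes of pluripotent cells, and 3 of the 80 Atoh1 cells of RA were pluripotent-type. These 3 cells held 98.6% of the Lefty1 UMIs and 96.9% of the Rhox5 UMIs of the RA Atoh1 cells. The difference between the libraries was not tested.

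Outside the kept cells, 6 of 4471 barcodes of RA+BMP4 that failed the filter held at least 2 Atoh1 UMIs, against 3 of 3666 of RA. They entered no comparison.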

How the results depend on the processing

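The share of Atoh1 cells was higher in RA+BMP4 under every setting run, with a ratio of 2.33 as reported, 6.65 at the stricter cell filter (2000 or more genes, no more than 5% mitochondrial UMIs; 6 Atoh1 cells in RA), 4.80 after thinning at 2 UMIs and 3.04 at 1 UMI. The RA+BMP4 share of 3.09% became 5.49% at 1 UMI or more, 2.08% at 3 or more, 2.08% with no cell filter, and 1.72% and 3.75% after thinning at 2 and 1 UMIs. The RA share of 1.32% became 2.10% at 1 UMI, 0.927% at 3, 0.855% with no filter, 0.475% at the stricter filter and 0.359% after thinning. Over other kept cells, the RA+BMP4 count of 515 lower genes became 179 at a floor of 50 CPM and 1298 at 5 CPM. The RA counts of 244 higher and 529 lower became 151 and 190 at 50 CPM, 383 and 1445 at 5 CPM, and 701 and 298 at the stricter filter. For RA+BMP4 over RA, 170 higher and 76 lower became 54 and 25 at 50 CPM and 595 and 360 at 5 CPM, and the lower count became 426 at the stricter filter, 34 with cells weighted equally and 38 without pluripotent-type cells. Rspo3 turned to −0.16 and Slc16a3 to −0.43 at the stricter filter, and Lefty1 to 0.14 without pluripotent-type cells. The share with 5 or more Barhl UMIs was 29.2% in RA+BMP4 and 41.3% in RA, 5.43% and 3.75% after thinning, and 56.6% and 65% with the upper state at 3 UMIs. Thinning gave 1118 higher genes in RA+BMP4 (702 as reported), 224 lower in RA (882 with all members), and Cnr1 at −0.23. The upper state then held 14 cells in RA+BMP4 and 3 in RA. Causes of these changes were not tested. Of the named genes' values under the alternatives, 1067 kept the call or, for genes not called as reported, moved by less than 2-fold. Another 81 lost the call, and 2 gained one with a move of at least 2-fold. Of called genes' values 4 reversed, and 48 values could not be computed.

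Scaling by TMM subtracted 0.105 from all log2 ratios of RA+BMP4 over RA within Atoh1 cells, which lowers them. No paired analysis was possible because each condition had 1 library. The main limits are the single library per condition, the 80 Atoh1 cells of RA, and the depth, at which 208 cells of RA+BMP4 and 47 of RA held 1 Atoh1 UMI.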
